A study of Mus musculus with 48 samples.

Results

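A set of 5 noncoding genes whose RNAs are made by RNA polymerase III, namely Rny1, Rny3, Rmrp, Rpph1 and Rn7sk, were followed through all 48 tumor libraries of the study. They are 5 of the 55450 genes in the count table, and they were taken as a list of named structural RNAs. Rny1 was picked because it differed between untreated iNOS KO and WT tumors, and the other 4 were listed beside it as RNAs of related origin. Values from those untreated day 7 tumors are therefore given as a description, with no test. Of the 5 genes, 4 were detected and passed the filter on low counts in both experiments, and Rmrp was at 0 counts in every library.

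The members are short RNAs that are not translated. Rny1 and Rny3 encode Y RNAs, which are bound by the Ro60 and La proteins and are known for parts in RNA quality control and DNA replication. Rpph1 encodes the RNA of RNase P, which trims the leader of precursor tRNAs, and Rmrp encodes the RNA of the related RNase MRP, which acts in ribosomal RNA maturation. Rn7sk encodes 7SK RNA, the scaffold that holds the elongation factor P-TEFb in an inactive complex and so limits transcription by RNA polymerase II. Genes of this kind are driven from promoters that lie upstream of the transcribed part, and RNA polymerase III stops at a run of T.

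The libraries came from B16-D5 melanoma tumors, a mouse melanoma line injected under the skin of C57BL/6J (WT) mice or iNOS KO mice, which lack the inducible nitric oxide synthase gene Nos2. Mice arrived when 4 weeks old and were kept for 2 weeks, cells were injected 8 days before therapy, and 250 µg of anti-PD-1 or control IgG in 200 µL of PBS was given on days 0 and 3, or no treatment. The first experiment has 30 libraries of WT tumors in 10 groups: untreated at 0 h, and untreated, IgG or anti-PD-1 at 6 h, day 1 and day 3. The second has 18 libraries in 6 groups, WT and iNOS KO, each untreated, IgG or anti-PD-1, at day 7. Every group has 3 tumors, each from a separate animal per the study. The injected cells were the same line in both genotypes, so a knockout concerns only the cells of the host within each tumor. Tumors were sequenced whole.

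Several facts about the libraries bear on what follows. Libraries of the first experiment held 25574203 to 47687872 counts, and those of the second 11625862 to 40959309. Nos2 did not separate the genotypes, since the 9 tumors with an iNOS KO label had 1.16 to 5.95 CPM of it at day 7 and the 9 WT tumors 1.40 to 7.43 CPM. CPM is the count scaled by TMM to a library of 1e+06 counts. For the sums over sensory receptor and ribosomal protein genes it is the count per 1e+06 counts of the library, without TMM. The titles of 9 samples read KO although all 48 genotype labels say WT, so "iNOS KO" below means tumors whose title carries that label. A group of 3 day 7 libraries stood apart by counts on 1504 sensory receptor genes, which are silent in most tissues: iNOS KO untreated replicate 1 and WT anti-PD-1 replicates 3 and 4 had 917 to 3715 CPM on them. The other day 7 libraries had 12.3 to 233 CPM on these genes, and the WT IgG tumors among them 55.0 to 233 CPM. At the rate of counts per kb on those genes, Rny1 would receive at most 0.877 counts and Rn7sk at most 2.59 counts in any day 7 library. In the first experiment 1 library, WT IgG at 6 h replicate 6, was low in several short RNAs. It had 3.19 CPM of the brain cytoplasmic RNA Bc1, against a median of 263 CPM over the experiment, and 0 counts of the spliceosomal RNA Rnu11, whereas its Rn7sk level of 2614 CPM lay above the median of 2435 CPM. The defining melanoma markers were present in every day 7 group, with summed levels of 9582 to 18841 CPM, and none of the 7 was at 0.

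The full sequences of the Y RNAs are shown because most of the results turn on this pair. They lie in a cluster on chromosome 6 of GRCm38 (mm10), Rny1 (ENSMUSG00000065701.1) at chr6:47788069-47788180 on the minus strand and Rny3 (ENSMUSG00000064945.1) at chr6:47781624-47781725 on the plus strand, 6344 bases apart with the pseudogene Rpl31-ps7 between them. Neither overlaps an exon of another gene on its strand. Transcripts are from GENCODE vM21, read 5′ to 3′, and capitals mark the 3 runs of 8 or more bases, 28 bases in all, that both share.
Rny1: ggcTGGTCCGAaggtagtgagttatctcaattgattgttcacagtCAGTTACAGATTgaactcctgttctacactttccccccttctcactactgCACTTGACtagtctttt
Rny3: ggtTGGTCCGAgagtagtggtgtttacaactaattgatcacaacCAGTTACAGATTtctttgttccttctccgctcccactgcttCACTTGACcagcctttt
The outer shared runs lie near the ends, which pair into the stem that carries the Ro60 site in Y RNAs. The transcripts are 112 and 102 bases long and were identical at 81 of 112 aligned positions (72.3%). Both end in a run of 4 T.

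Rpph1 (ENSMUSG00000092837.1) lies at chr14:50807449-50807767 on the minus strand, 74 bases from the start of Parp2. An exon of the protein-coding gene Ccnb1ip1 covers 233 of its 319 bases on the same strand, so only the ends below can be told from that gene.
Rpph1 5 prime end: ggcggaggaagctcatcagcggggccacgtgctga
Rpph1 3 prime end: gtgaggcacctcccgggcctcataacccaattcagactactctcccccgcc
These ends hold 35 and 51 bases. Ccnb1ip1 itself had 101 counts over all 48 libraries, and Rpph1 had 1932.

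Rn7sk (ENSMUSG00000065037.1) lies at chr9:78175303-78175633 on the minus strand and is 331 bases long. The annotation holds 11 copies of at least 90% identity, which together had 6782 counts against 4643035 for Rn7sk. The last 120 bases are shown, with capitals for the 82 bases that no copy covers.
Rn7sk 3 prime end: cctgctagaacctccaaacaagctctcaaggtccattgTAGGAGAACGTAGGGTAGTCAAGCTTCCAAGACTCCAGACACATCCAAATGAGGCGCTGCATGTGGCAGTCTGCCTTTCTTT
Copies of lower identity, or over less than 50% of its length, were not counted, so the capitals are not shown to be unique to Rn7sk. The Y RNAs had few copies of at least 90% identity: none for Rny3, and 2 for Rny1 with 114 counts against 171049.

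Rmrp had no counts in the table. The annotation gives it 2 identifiers at almost the same place on chromosome 4, ENSMUSG00000088088.1 at chr4:43492788-43493058 and ENSMUSG00000115420.1 at chr4:43492783-43493063, both on the minus strand. Both were at 0 in all 48 libraries. Of the 765 genes wholly covered by another gene on the same strand, 725 (94.8%) were at 0 in every library. Of the 559 genes covered over at least 50% of their length but not wholly, 95 were at 0, and of the 52094 genes with no such overlap 5.30% were. The first Rmrp identifier belongs to the wholly covered genes, and the second, covered over 271 of its 281 bases, to those covered in part. How reads over both were assigned is not given in the sources used here, so no upper limit is set on the level of this RNA.

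**Figure D1:**
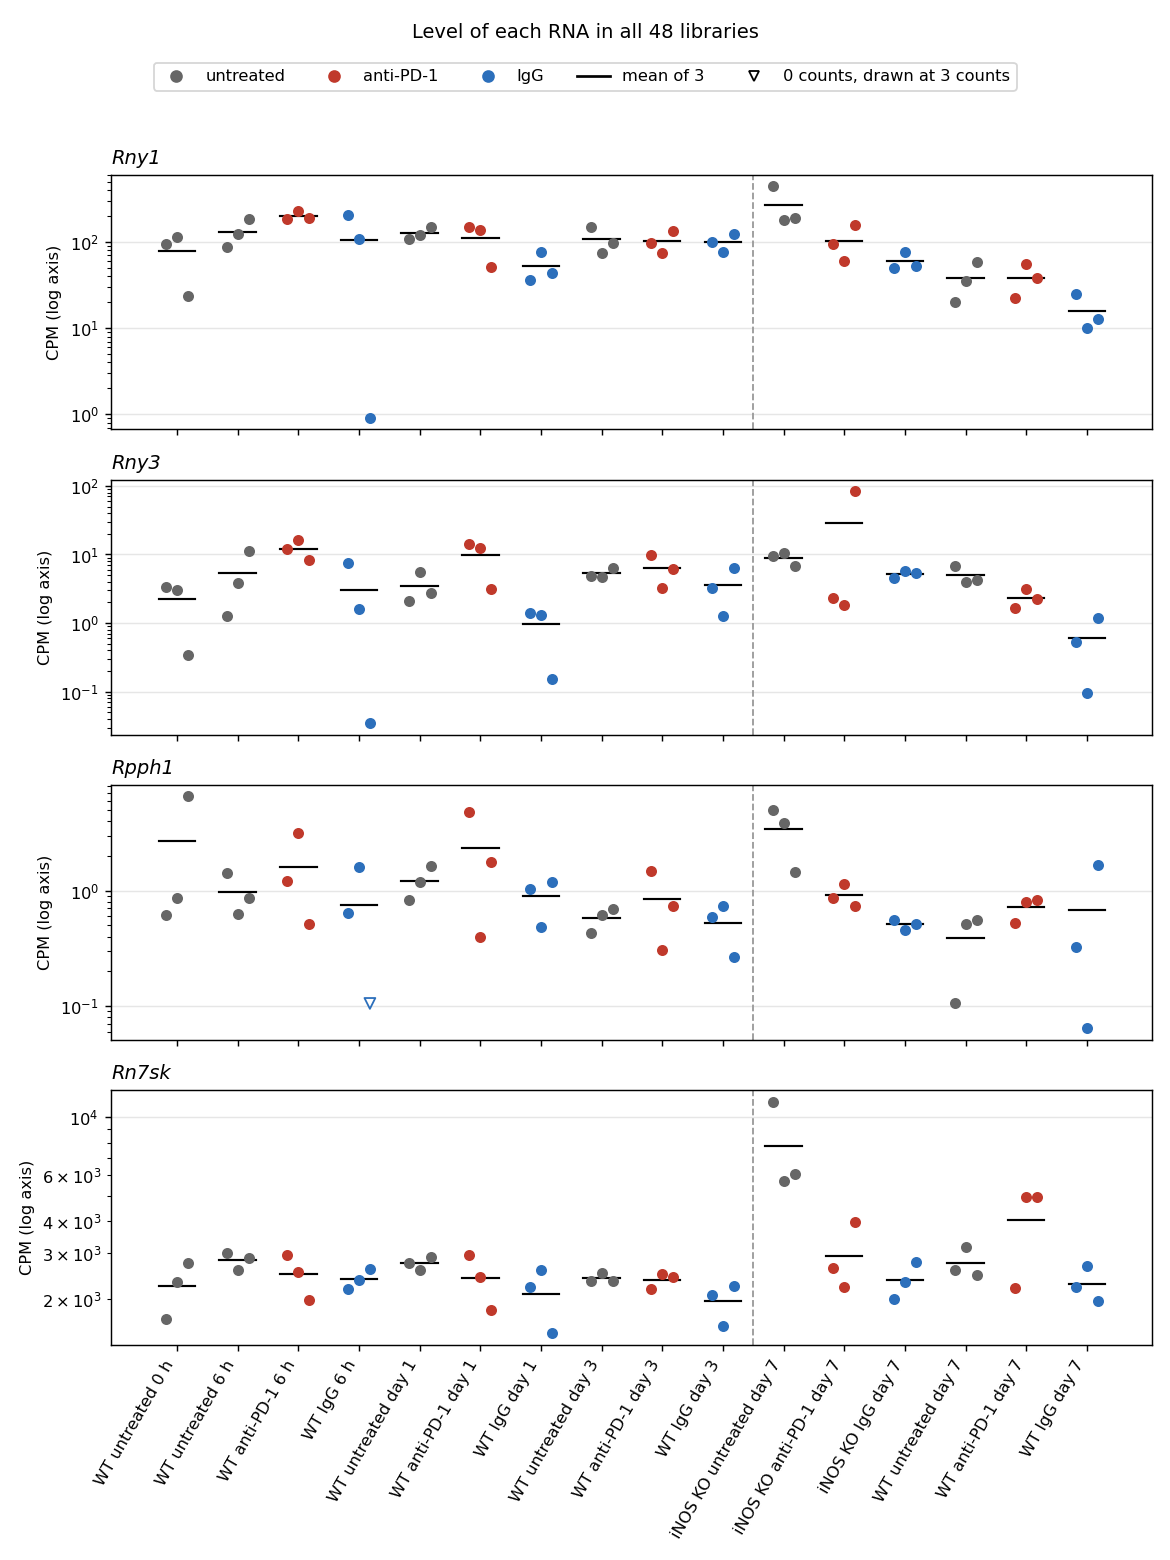
CPM on a log axis for each of the 4 detected RNAs, 1 point per library, in the 10 groups of the first experiment (left of the dashed line) and the 6 groups of day 7 (right of it). Short bars are means of 3, and the 1 library at 0 counts of Rpph1 is drawn as an open triangle at the level of 3 counts. The experiments were normalized apart, so levels are to be compared on 1 side of the line only.

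Rn7sk was the most abundant member per length. Its median was 7357 CPM per kb in the first experiment and 8031 CPM per kb at day 7, against 972 and 483 CPM per kb for Rny1, 35.5 and 40.6 CPM per kb for Rny3, and 2.46 and 2.02 CPM per kb for Rpph1. The Y RNAs are short, and the silica columns used for extraction retain very short RNAs poorly as a rule, so these levels are not numbers of molecules per cell. The members also varied to different degrees. The biological coefficient of variation of Rn7sk between tumors of a group was 0.189 in the first experiment, lower than that of most tested genes (13.5% had a lower one), whereas it was 0.634 for Rny1, 0.792 for Rny3 and 0.797 for Rpph1. At day 7 it was 0.260, 0.370, 0.732 and 0.740 in the same order.

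Neighbouring groups were not apart for any member in the first experiment. When the 10 groups were ranked by mean CPM, the ranges of all 9 neighbouring pairs overlapped for each of the 4 RNAs. At day 7, 1 of 5 neighbouring pairs was apart for Rny1, Rpph1 and Rn7sk, the untreated iNOS KO tumors above the next group in each case, and 3 of 5 were apart for Rny3. No share of all genes was computed for such pairs, so the counts are a description. Rny1 was picked with the untreated iNOS KO tumors.

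The genotypes were compared first in treated day 7 tumors, which had no part in picking Rny1. Rny1 was higher in iNOS KO than in WT tumors under both antibodies. Under IgG its level was 50.2, 76.0 and 53.3 CPM in iNOS KO and 25.1, 9.98 and 12.8 CPM in WT tumors. All 3 iNOS KO values lay above all 3 WT values, as was the case for 7.45% of tested genes. Under anti-PD-1 it was 94.1, 60.1 and 158 CPM in iNOS KO and 22.6, 55.0 and 38.5 CPM in WT tumors. The groups were again apart, a pattern seen for 6.27% of genes. The log2 fold change of Rny1 was 1.91 (SE 0.45) under IgG, with an adjusted p = 0.60 by edgeR's quasi-likelihood test, and 1.43 (SE 0.44) under anti-PD-1, with an adjusted p = 0.121. Neither passed the threshold over all 30837 genes, and edgeR called 0% of genes in either comparison. At an unadjusted p under 0.05, 6.87% of genes passed under IgG and 33% under anti-PD-1, of which the higher ones were 3.33% and 6.29% of genes. Rny1 was among these in both. The 2 effects differed by -0.47 (SE 0.61) on the log2 scale, which was within error (interaction, adjusted p = 0.930 by edgeR, 0% of genes called and 7.51% at an unadjusted p under 0.05).

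A comparison added after these values were seen averaged the genotype effect over both antibodies, 6 iNOS KO against 6 WT tumors in the same fit. Rny1 was higher by 1.67 (SE 0.31) on the log2 scale, a fold of 3.18, with an adjusted p = 0.047 by edgeR. It was 1 of 25 genes called (0.0811%), with 5 up and 20 down relative to WT. The 6 and 6 values overlapped, from 50.2 to 158 CPM against 9.98 to 55.0 CPM. In this comparison 34.1% of genes had an unadjusted p under 0.05, and the higher ones made 7.69% of genes. The call was lost in 4 of 21 alternatives: without WT anti-PD-1 replicate 3 (adjusted p = 0.0794 by edgeR), with DESeq2 size factors (0.0641), without the 3 libraries with raised receptor counts, which leaves 1 WT anti-PD-1 tumor (0.177), and with the summed receptor counts as a covariate (0.763). Over all alternatives the log2 fold change of Rny1 ranged from 1.47 to 2.27, with an adjusted p under 0.05 in 17 of 21.

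Rny3 was also higher in iNOS KO tumors under IgG. It was 4.53, 5.84 and 5.35 CPM in iNOS KO and 0.534, 0.0966 and 1.21 CPM in WT tumors, the lowest of these being 3 counts. The groups did not overlap, as in that direction for 7.45% of genes. The log2 fold change was 3.10 (SE 1.0, adjusted p = 0.60 by edgeR, unadjusted p = 0.0057). An unadjusted p under 0.05 was seen for 6.87% of genes, and the higher ones were 3.33%. Untreated WT tumors had 3.99 to 6.81 CPM of Rny3, a range that spans the iNOS KO values under IgG. Under anti-PD-1 Rny3 was 2.35, 1.85 and 83.3 CPM in iNOS KO and 1.66, 3.15 and 2.26 CPM in WT tumors. A single tumor, iNOS KO replicate 3, stood far above the other 5, which lay within one range. The log2 fold change of 3.65 (SE 0.98, adjusted p = 0.118 by edgeR) became -0.10 without that library, and the averaged value fell from 3.38 (SE 0.70, adjusted p = 0.057) to 1.48 (adjusted p = 0.079 by edgeR).

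**Figure D2:**
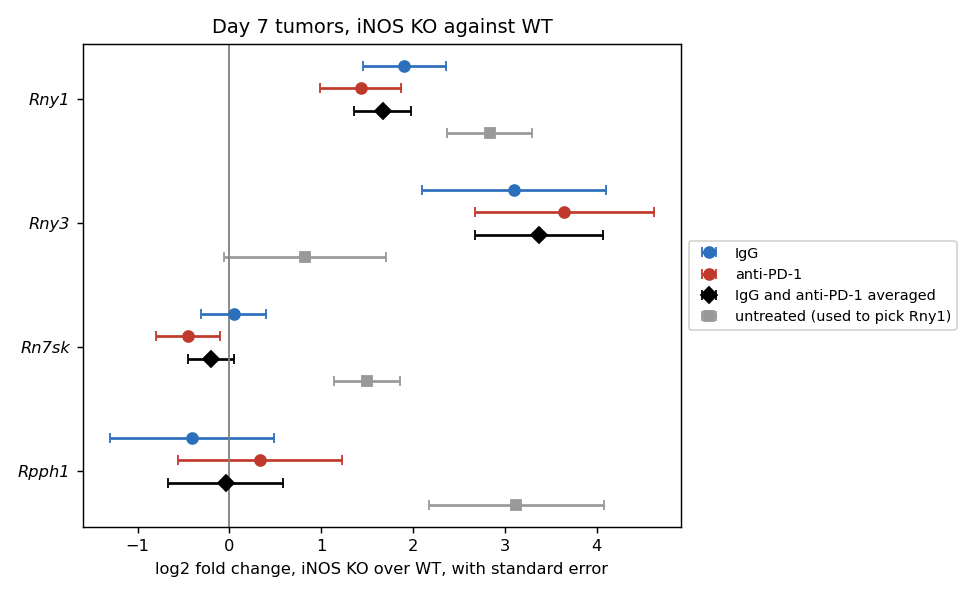
Log2 fold change of iNOS KO over WT at day 7 with its standard error, for each RNA, under IgG, under anti-PD-1, averaged over both, and in untreated tumors. Rny1 lay between 1.43 and 1.91 in treated tumors, and Rn7sk between -0.45 and 0.05. The value of Rny3 under anti-PD-1 rests on 1 library, and the gray squares are a description because Rny1 was picked from them.

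Neither Rn7sk nor Rpph1 separated the genotypes in treated tumors. Rn7sk was 1997, 2320 and 2778 CPM in iNOS KO and 2224, 2686 and 1967 CPM in WT tumors under IgG, and the ranges were nearly the same. Its log2 fold change was 0.05 (SE 0.35, adjusted p = 1 by edgeR) under IgG and -0.45 (SE 0.35, adjusted p = 0.349) under anti-PD-1. Rpph1 had a log2 fold change of -0.41 (SE 0.89, adjusted p = 0.949 by edgeR) under IgG and 0.33 (SE 0.89, adjusted p = 0.799) under anti-PD-1. The median log2 fold change of all genes was -0.08 under IgG and -0.92 under anti-PD-1, and the latter comparison contains 2 of the 3 libraries with raised counts on receptor genes. Relative to that median every member was higher in iNOS KO tumors under anti-PD-1.

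In treated tumors the summed melanoma markers differed with genotype as well. The 7 melanoma markers summed to 15308 to 16343 CPM in iNOS KO and 9582 to 14877 CPM in WT tumors under IgG, and to 15497 to 17263 and 9776 to 13660 CPM under anti-PD-1. The 7 leukocyte markers summed to 109 to 163 CPM in iNOS KO and 141 to 494 CPM in WT tumors under IgG, and to 43.2 to 127 and 71.5 to 235 CPM under anti-PD-1. The melanoma sums were apart and the leukocyte sums overlapped under both antibodies, and edgeR called no gene in either comparison. Of single genes, 7.45% under IgG and 6.27% under anti-PD-1 were apart and higher in iNOS KO tumors. In untreated tumors the melanoma sums overlapped, 14359 to 18841 CPM in iNOS KO and 15849 to 17737 CPM in WT tumors. The leukocyte sums of untreated tumors, 64.2 to 108 and 80.8 to 169 CPM, overlapped too. In each of these groups no defining marker of either list was at 0, and their part in the levels of the Y RNAs was not tested. In bulk tumors fewer cells of a type and less RNA per cell cannot be told apart.

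In untreated day 7 tumors, from which Rny1 was picked, 3 of the 4 detected members were far higher in iNOS KO tumors. Rny1 was 443, 180 and 187 CPM in iNOS KO and 20.4, 35.4 and 57.9 CPM in WT tumors, which gave a log2 fold change of 2.83 (SE 0.46). Rn7sk was 11512, 5682 and 6078 CPM in iNOS KO and 2590, 3164 and 2474 CPM in WT tumors, with a log2 fold change of 1.5 (SE 0.36). Rpph1 was 5.0, 3.83 and 1.46 CPM in iNOS KO and 0.106, 0.509 and 0.555 CPM in WT tumors, and the log2 fold change was 3.13 (SE 0.96). These groups did not overlap, as was so in that direction for 9.87% of genes. Rny3 lay at 9.63, 10.4 and 6.72 CPM in iNOS KO and 6.81, 3.99 and 4.29 CPM in WT tumors, which overlapped, with a log2 fold change of 0.82 (SE 0.88). Over all genes 0.603% were called here by edgeR, 185 up and 1 down relative to WT, and the median log2 fold change of all genes was 0.50. The highest Rny1 and Rn7sk values were those of iNOS KO replicate 1, 1 of the 3 libraries with raised receptor counts. Without these 3 libraries the log2 fold changes were 2.27 for Rny1, 1.09 for Rn7sk and 2.74 for Rpph1. The 5 adipocyte markers were all higher in iNOS KO tumors, with a median log2 fold change of 2.56 and sums of 31 to 61 against 13.8 to 26.1 CPM, and their part in these levels was not tested.

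The untreated iNOS KO tumors stood above the treated ones of the same genotype too. All 3 Rn7sk values, from 5682 to 11512 CPM, were above the highest of the other 15 day 7 libraries, 4934 CPM. No share of all genes was computed for that pattern, so it is a description. Rny1 was lower by 2.17 (SE 0.45) on the log2 scale under IgG and by 1.38 (SE 0.44) under anti-PD-1 than without treatment, and the groups were apart in both, as in that direction for 9.74% and 8.5% of genes. The same comparisons in WT tumors gave -1.25 (SE 0.44) and 0.03 (SE 0.43) for Rny1, with overlapping values. For Rny3 they gave -3.04 (SE 1.0) and -1.11 (SE 0.92) in WT tumors, apart in both, as in that direction for 8% and 8.66% of genes. In iNOS KO tumors Rny3 had -0.76 (SE 0.88) under IgG, with no overlap, and 1.71 (SE 0.89) under anti-PD-1, with overlap.

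The counts on cytosolic ribosomal protein genes, which make short and abundant messenger RNAs, moved with these levels. Their 83 genes summed to 28898 to 40609 CPM in untreated iNOS KO tumors and to 18070 to 21506 CPM in untreated WT tumors. Under IgG the sums were 20903 to 23308 CPM in iNOS KO and 18056 to 19549 CPM in WT tumors, and under anti-PD-1 19735 to 28755 and 21084 to 31661 CPM. After subtraction of group means, Pearson's r of log2 levels with this sum over the 18 day 7 libraries was 0.85 for Rny1, 0.88 for Rn7sk, 0.57 for Rny3 and 0.27 for Rpph1. Over the 30 libraries of the first experiment it was 0.62, -0.04, 0.71 and -0.44 in that order. WT IgG at 6 h replicate 6 had the lowest Rny1 and the lowest ribosomal protein sum of its group, 0.912 and 16975 CPM. The r without it was not computed. The correlations are descriptions, since all values of a library share its depth. The sum, unlike the members, was not scaled by TMM.

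**Figure D3:**
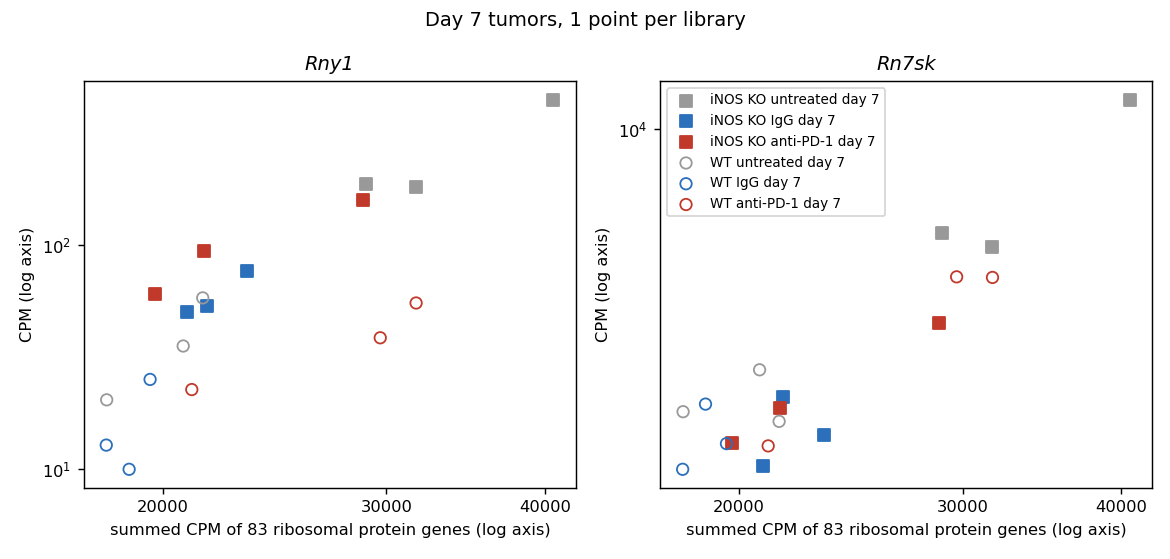
CPM of Rny1 (left) and Rn7sk (right) against the summed CPM of the 83 ribosomal protein genes in the 18 day 7 libraries, all on log axes. The sums are not scaled by TMM. Squares are iNOS KO and open circles WT tumors, and colors give the treatment. Both RNAs are highest in the untreated iNOS KO library at 40609 CPM of ribosomal protein genes, and the WT anti-PD-1 tumors with high sums have 4920 and 4934 CPM of Rn7sk and 55.0 and 38.5 CPM of Rny1.

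With the ribosomal protein sum as a covariate, a fit added after seeing the data, the picture differed by member. In untreated tumors the log2 fold change of iNOS KO over WT became 0.87 for Rny1, 0.13 for Rn7sk, 1.33 for Rpph1 and -1.93 for Rny3. In treated tumors the value of Rny1 remained positive, at 1.33 under IgG (adjusted p = 0.129 by edgeR), 2.01 under anti-PD-1 (adjusted p = 0.0285) and 1.67 averaged (adjusted p = 0.00065). The slope of the covariate was fitted over all 18 day 7 libraries, among them the untreated iNOS KO tumors used to pick Rny1. The adjusted p values of Rny1 in this fit therefore draw on those tumors and are given as a description. This fit called 0% of all genes under IgG, 0.00324% under anti-PD-1, where Rny1 was the 1 gene, and 18.3% averaged. The part of these messenger RNAs in the levels of the members was not tested.

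The study asked what part iNOS has in the effect of anti-PD-1. The members were compared between anti-PD-1 and IgG at 4 times in WT tumors and at day 7 in iNOS KO tumors. By edgeR no gene of the table, and so no member, passed the adjusted threshold in these or in the rest of the 17 comparisons that were tested, a share of 0%. These leave out the 5 comparisons with untreated day 7 tumors, of which 3 had called genes, 186 for iNOS KO against WT, 47 for IgG and 16 for anti-PD-1 against no treatment in iNOS KO tumors. The unadjusted p was under 0.05 for 11 of 72 tests of members, of which 2 belong to the added average. The share of all genes at that threshold ran from 1.98% to 34.1%, depending on the comparison. The pooled count therefore has no single share to be set against. DESeq2 called between 1 and 3227 genes in the same comparisons but only 1 member, Rny1 in iNOS KO against WT under anti-PD-1 (adjusted p = 0.047). That is the comparison with 3227 genes called, 12.2% of those with an adjusted p, and the higher ones were 1.5%. DESeq2 gave no adjusted p in 6 of its tests.

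Rny3 had the largest differences of the 4 between anti-PD-1 and IgG. At 6 h it was 11.8, 16.1 and 8.20 CPM under anti-PD-1 and 7.42, 1.58 and 0.0351 CPM under IgG, the last value being 1 count in the library that was low in Bc1 and Rnu11. The groups did not overlap, as in 2.13% of genes, and the log2 fold change was 2.00 (SE 0.99, adjusted p = 0.967 by edgeR), or 1.45 without that library. At day 1 it was 14.2, 12.3 and 3.15 CPM under anti-PD-1 and 1.41, 1.31 and 0.154 CPM under IgG. The groups were apart again, as in 2.77% of genes, with a log2 fold change of 3.36 (SE 1.06, adjusted p = 1 by edgeR, unadjusted p = 0.0038). At day 3 it was 9.70, 3.22 and 6.19 CPM against 3.29, 1.28 and 6.36 CPM, and the values overlapped (log2 fold change 0.80, SE 0.96, adjusted p = 1 by edgeR). At day 7 in WT tumors it was 1.66, 3.15 and 2.26 CPM against 0.534, 0.0966 and 1.21 CPM, which were apart, as in 9.80% of genes, with a log2 fold change of 1.93 (SE 1.01, adjusted p = 0.314 by edgeR). In iNOS KO tumors the log2 fold change of 2.48 (SE 0.91, adjusted p = 1) became -1.32 without iNOS KO anti-PD-1 replicate 3. At an unadjusted p under 0.05, 4.38% of genes passed at 6 h, 3.64% at day 1, 2.14% at day 3, 16.1% at day 7 in WT and 1.98% in iNOS KO tumors. Rny3 was among them at day 1 and in iNOS KO tumors.

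Rny1 differed less between the antibodies. At 6 h it was 185, 227 and 188 CPM under anti-PD-1 and 203, 109 and 0.912 CPM under IgG. Here the values overlapped, and the lowest was 26 counts in the same library. The log2 fold change was 0.94 (SE 0.77, adjusted p = 1 by edgeR), or 0.38 without it. At day 1 Rny1 was 149, 136 and 50.8 CPM against 35.8, 77.0 and 43.9 CPM, which overlapped, with a log2 fold change of 1.10 (SE 0.77, adjusted p = 1 by edgeR), or 0.43 with the sum of ribosomal protein genes as a covariate. At day 3 the ranges were nearly the same, 73.7 to 133 CPM against 76.9 to 125 CPM. At day 7 in WT tumors the log2 fold change was 1.27 (SE 0.44, adjusted p = 0.308 by edgeR, unadjusted p = 0.0097), with 1 WT anti-PD-1 tumor inside the IgG range, and it became -0.15 with the ribosomal protein covariate. The value of Rny3 in the same comparison became 0.02 with that covariate. The median of all genes there was 0.76. In iNOS KO tumors Rny1 had 0.80 (SE 0.43, adjusted p = 1 by edgeR), or 0.37 without iNOS KO anti-PD-1 replicate 3.

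IgG itself was compared with no treatment in the first experiment. At day 1 Rny1, Rny3 and Rn7sk were each lower under IgG with no overlap, a pattern seen for 6.36% of genes. Rny1 was 35.8 to 77.0 CPM under IgG and 109 to 150 CPM without treatment, a log2 fold change of -1.28 (SE 0.78, adjusted p = 0.862 by edgeR), or -0.51 with the ribosomal protein covariate. Rny3 was 0.154 to 1.41 against 2.10 to 5.54 CPM (-1.85, SE 1.0), and Rn7sk was 1479 to 2587 against 2599 to 2904 CPM (-0.39, SE 0.21). None of these passed, and 5.43% of genes had an unadjusted p under 0.05 there, against 5.42% at 6 h and 2.64% at day 3. Between anti-PD-1 and no treatment no member was apart at any time, and the shares of genes at that unadjusted threshold were 3.3% at 6 h, 2.64% at day 1 and 2.63% at day 3. The anti-PD-1 and IgG comparisons of a time share tumors with these. At day 1 markers of other cells differed as well. The leukocyte markers summed to 365 to 471 CPM under IgG and 136 to 257 CPM without treatment, which did not overlap. Of single genes 6.26% were apart in that direction. All 6 skeletal muscle and all 5 keratinocyte markers had an unadjusted p under 0.05 and were higher under IgG, with median log2 fold changes of 7.25 and 7.42, and their sums overlapped (2.69 to 7144 against 3.88 to 26 CPM, and 0.436 to 550 against 1.07 to 2.48 CPM). No defining marker of these lists was at 0 throughout a group, and their part in the levels of the members was not tested. At day 3 Rn7sk was again lower under IgG with no overlap, 1575 to 2238 against 2340 to 2523 CPM, as in 4.67% of genes (log2 fold change -0.29, SE 0.21, adjusted p = 1 by edgeR).

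Untreated WT tumors were also followed from 0 h. Rpph1 was 0.619, 0.854 and 6.54 CPM at 0 h and 0.425, 0.610 and 0.690 CPM at day 3, so that 1 tumor at 0 h, replicate 3 with 245 counts, stood above the rest. The log2 fold change of -2.21 (SE 1.05, adjusted p = 0.699 by edgeR, unadjusted p = 0.044) became -0.32 without it. That tumor also had the lowest Rny1 (23.7 CPM) and Rny3 (0.347 CPM) at 0 h. Rny3 was apart between day 3 and 0 h, 4.77 to 6.35 CPM against 0.347 to 3.35 CPM, as in 3.4% of genes, with a log2 fold change of 1.24 (SE 0.97, adjusted p = 0.891 by edgeR). The 5 keratinocyte markers were all lower at day 3, with a median log2 fold change of -9.69, and summed to 1.05 to 1.70 CPM against 14.7 to 3437 CPM at 0 h. Their part in the levels of the Y RNAs was not tested. The shares of genes with an unadjusted p under 0.05 were 6.92% at 6 h, 6.85% at day 1 and 6.89% at day 3 against 0 h.

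The ratio of the Y RNAs was not constant. Rny3 made 0.349% to 8.98% of the Y RNA counts in WT tumors up to day 3, with a median of 3.75%, and 0.958% to 34.6% at day 7, with a median of 6.20%. The highest value was again iNOS KO anti-PD-1 replicate 3, in which Rny3 had 3187 counts and Rny1 6034, and WT untreated replicate 1 followed with 25.1%. The levels of Rny1 and Rny3 correlated between tumors of a group, with a Pearson's r of 0.75 over the 30 libraries of the first experiment and 0.43 over the 18 of day 7 after subtraction of group means. Rny1 and Rn7sk had -0.10 and 0.61. WT IgG at 6 h replicate 6, with 0.912 CPM of Rny1 and 0.0351 CPM of Rny3, lay far below its group. At day 7 iNOS KO anti-PD-1 replicate 3 lay far above its group for Rny3. The r without these libraries was not computed.

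**Figure D4:**
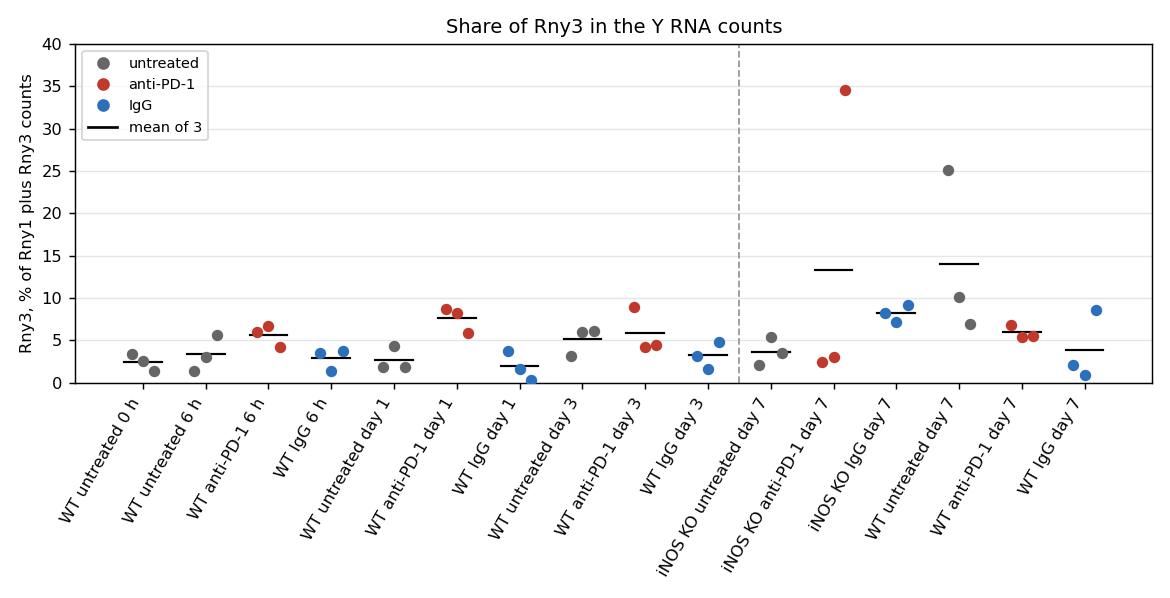
Rny3 as a percent of Rny1 plus Rny3 counts in each library, by group, with the mean of 3 as a short bar. Most libraries lie under 10%, and the 2 day 7 libraries above 25% are iNOS KO anti-PD-1 replicate 3 and WT untreated replicate 1.

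Rn7sk varied little between the tumors of the first experiment. Its 30 values ran from 1479 to 3016 CPM with a median of 2435 CPM, and its group means lay between 1962 CPM (IgG, day 3) and 2830 CPM (untreated, 6 h). Log2 fold changes between anti-PD-1 and IgG were 0.06 at 6 h, 0.19 at day 1 and 0.27 at day 3, each with an SE of 0.21. At day 7 in WT tumors it was 2200, 4920 and 4934 CPM under anti-PD-1 against 2224, 2686 and 1967 CPM under IgG, a log2 fold change of 0.81 (SE 0.36, adjusted p = 0.308 by edgeR). The 2 high tumors are the 2 with raised receptor counts, and the log2 fold change was -0.08 when all 3 such libraries were left out, which leaves 1 WT anti-PD-1 tumor that is assumed to vary like the other groups. Rpph1 was low throughout, with a median of 0.785 CPM in the first experiment and 0.645 CPM at day 7, and WT IgG at 6 h replicate 6 had 0 counts, which allows up to 0.105 CPM.

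Proteins that make or bind these RNAs were compared in the treated day 7 tumors, from lists chosen with earlier results of these data known. In all 18 tested comparisons no gene of any list was called by edgeR. All 13 RNA polymerase III subunits were tested. Their median log2 fold change of iNOS KO over WT was 0.15 under IgG and 0.13 under anti-PD-1. At an unadjusted p under 0.05 there were 2 up and 1 down under IgG. Of all genes 6.87% passed that threshold under IgG, and the higher ones were 3.33%. The 19 factors of the polymerase, with Gtf3c1 of the assembly factor TFIIIC and Bdp1 of TFIIIB, had medians of 0.06 and 0.21. Among the 4 Y RNA-binding proteins, Ssb, which encodes La, had log2 fold changes of 0.13 (SE 0.21, adjusted p = 0.892 by edgeR) and 0.37 (SE 0.21, adjusted p = 0.198). The 11 proteins of RNase P and MRP had medians of 0.12 and 0.14, and the 7 proteins of the 7SK complex, with Ccnt1 and Cdk9 of P-TEFb, 0.09 and 0.39. At an unadjusted p under 0.05 under anti-PD-1, 3 factors, 1 Y RNA-binding protein, 1 protein of RNase P and MRP and 3 of the 7SK complex were higher in iNOS KO tumors, against 6.29% of all genes. DESeq2 called 0 genes of these lists under IgG, where it called 0.082% of all genes, and under anti-PD-1 it called 1 factor, 1 Y RNA-binding protein and 1 protein of the 7SK complex, each higher in iNOS KO tumors, against 1.5% of all genes called higher. The medians of all tested genes were -0.08 and -0.92.

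Other RNAs of RNA polymerase III were mostly too low to test, 22 of the 190 in the table passing the filter at day 7. Bc1, the most abundant of them, had a log2 fold change of 1.11 (SE 0.43, adjusted p = 0.60 by edgeR) under IgG and -0.10 (SE 0.42, adjusted p = 0.874) under anti-PD-1. Rn7s1, an RNA of the signal recognition particle, had 0.69 (SE 0.49) and -0.52 (SE 0.48). The medians of the 22 were -0.16 and -0.79. Of small structural RNAs made by RNA polymerase II, the spliceosomal Rnu12 had 1.36 (SE 0.52, adjusted p = 0.60 by edgeR) under IgG and -0.37 (SE 0.51) under anti-PD-1. Rny1 thus had a positive value under both antibodies, and Bc1, Rn7s1 and Rnu12 had values of opposite sign. The medians of all tested genes were -0.08 under IgG and -0.92 under anti-PD-1. Rny1, Bc1, Rn7s1 and Rnu12 each lay above these medians under both antibodies. Differences between these genes were not tested.

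The genes whose levels were most like those of each member were found by Pearson's r of log2 CPM after subtraction of group means, over 30 and 18 libraries. For Rny1 they were Atp5d (0.96), Cox6b1 (0.96) and Rpl18 (0.95) among 15110 genes of the first experiment, and Rnu11 (0.91), Rpl35a (0.91) and B9d1 (0.90) among 15917 genes at day 7. For Rny3 they were Impa2 (0.87), Ndufb9 (0.87) and Proser3 (0.85), and at day 7 the pseudogenes Gm10123 (0.94), Gm10275 (0.93) and Gm12338 (0.90). For Rpph1 they were Rab10os (0.91), Lars2 (0.91) and Acin1 (0.89), and then Plcb2 (0.90), G0s2 (0.89) and Sirt7 (0.87). For Rn7sk they were Ilkap (0.73), Ppp1r12a (0.71) and Prrc2c (0.70), and then Ndufb4 (0.93), Mrpl41 (0.93) and Itgb3bp (0.92). No gene appeared in both experiments for any member. All values of a library share its depth and scaling, and these likenesses are given as descriptions. They can rest on single libraries far from their group, such as WT IgG at 6 h replicate 6 and, for Rny3, iNOS KO anti-PD-1 replicate 3. The r without these libraries was not computed.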

How the data were processed

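RNA of 48 B16-D5 tumors was sequenced by the authors from 100 ng of total RNA with a strand-specific kit. Per the study and the labels, adapters were removed with cutadapt 1.8.1, reads were aligned to mm10 with STAR 2.7.7a, and RSEM 1.3.0 gave reads per gene of GENCODE vM21. The authors deposited whole-number counts per gene and library, not normalized. The strand setting is not given in the sources used here, and the name of the table refers to another counting program than RSEM, which bears on how reads in overlapping genes were assigned. All 55450 identifiers matched vM21.

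Groups were taken from sample titles, since the treatment field went against the title in 34 samples. Day 7 was taken from the paper. The experiments were fitted separately in edgeR 4.0.16 (R 4.3.3): TMM, filterByExpr with a minimum count of 10 (26848 and 30837 genes), 1 coefficient per group, the quasi-likelihood F-test, 20 and 12 residual degrees of freedom, and Benjamini-Hochberg adjustment over all genes with a threshold of 0.05. The SE is the log2 fold change divided by the square root of F. The fits were tested on simulated data. Correlations used log2 of CPM plus 0.5 for genes with a mean of at least 1 CPM. Copies were searched with BLAST+ 2.17.0 (at least 90% identity over at least 50% of the member). DESeq2 1.42.0 was an alternative. Counting error only is covered by the level of 3 counts.

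Members and lists were chosen with earlier results of these data known. Named are the members, per list the called genes or up to 3 with the highest mean CPM, the 3 genes most like each member, and its neighbours. Replicate numbers were not taken as pairs: over 65 and 36 pairs of same-numbered tumors the median correlation of deviations was -0.075 and -0.018. No replicates were copies, with a chi-square per gene of at least 18.2.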

Additional observations from a re-analysis of the deposited data

How the results depend on the processing

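For the counts of members called, 245 of 270 values under alternatives were within 1.5 times the reported count. All 12 comparisons of the first experiment stayed at 0, and there the reported fit called no gene of the table. The added average was the only comparison with a member called. Its count was within that margin in 4 of 21 alternatives and ranged from 0 to 2. Exceptions were at day 7. Without a filter on low counts 2 members were called for anti-PD-1 against IgG in WT, 1 in iNOS KO, and 2 for iNOS KO against WT under IgG, under anti-PD-1 and averaged. That setting called 982, 78, 274, 2829 and 5164 genes in the same order, or 1.92%, 0.152%, 0.535%, 5.52% and 10.1%. For iNOS KO against WT under anti-PD-1, DESeq2 called 1 (12.2% of all genes) and the ribosomal protein covariate 1 (0.00324%). The slope of that covariate draws on the untreated tumors used to pick Rny1. Averaged over both antibodies, in the added comparison, 0 were called with DESeq2 size factors, with the receptor gene covariate and without the 3 libraries with raised receptor counts, and 2 were called with only the groups compared (2.89% of all genes) and with the ribosomal protein covariate (18.3%). Leaving out the 3 libraries leaves 1 WT anti-PD-1 tumor, assumed to vary like the other groups, in every value given here without them that involves WT anti-PD-1 tumors. With a replicate block, although the numbers do not pair the tumors, 2 were called in the averaged comparison (Rny1 1.64, adjusted p = 0.0335, 85 genes or 0.276% in all); the replicate block changed no other count. Leaving out 1 replicate gave 0 to 1 for anti-PD-1 against IgG in WT (Rny1, without WT anti-PD-1 replicate 2, adjusted p = 0.0438, 5.96% of all genes called), 0 to 1 for iNOS KO against WT under anti-PD-1 (Rny3, without the same library, adjusted p = 0.0388, 13% of all genes called) and 0 to 2 averaged (0.0577% to 23.1% of all genes where a member was called). The causes were not tested.

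Of 372 log2 fold changes under alternatives 318 were counted as the same, and 20 changed sign. The same meant an unchanged direction and, in tested comparisons, an unchanged side of the threshold. For untreated iNOS KO against WT, which was not tested, the value had to stay within a margin set from its SE. The Rny1 interaction became 0.069 with the receptor, 0.68 with the ribosomal protein and 0.065 with the short noncoding RNA covariate, and 0.31 without the 3 libraries. Rny1 for anti-PD-1 against IgG in WT at day 7 became -0.15 with the ribosomal protein covariate, and Rny3 in untreated iNOS KO against WT became -1.93. Leaving out 1 replicate gave Rny3 -0.10 to 4.26 for iNOS KO against WT under anti-PD-1 and -1.32 to 3.04 for anti-PD-1 against IgG in iNOS KO. Rn7sk for iNOS KO against WT under IgG became -0.025 with DESeq2 size factors, -0.026 in DESeq2, -0.34 with the ribosomal protein covariate and -0.0095 with only the groups compared, and it ranged from -0.12 to 0.14 without 1 replicate. Under anti-PD-1 it became 0.68 with the receptor and 0.0041 with the ribosomal protein covariate, and 0.41 without the 3 libraries. For anti-PD-1 against IgG in WT at day 7 it became -0.20 with the ribosomal protein covariate and -0.08 without the 3 libraries. At the depth of these libraries Rpph1 and Rny3 rested on fewer than 20 counts in several tumors.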
